A study of Mus musculus with 146 samples.

Results

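Genes of granulocyte precursors, of neutrophil granules and of inflammatory monocytes were followed in cultured mouse macrophages. The 31 genes were chosen by name, as rows of the deposited count table matched to mouse symbols, out of 22721 genes in that table. They comprise 4 genes of primary granules (Mpo, Elane, Prtn3, Ctsg), 8 of secondary and tertiary granules (Ngp, Camp, Ltf, Lcn2, Mmp8, Pglyrp1, Cd177, Fcnb), 2 alarmins (S100a8, S100a9), 4 receptors or secreted products of later neutrophils (Cxcr2, Il18rap, Retnlg, Trem3), 4 genes of precursors (Ms4a3, Plppr3, Rab44, Cd24a), 4 regulators (Cebpe, Gfi1, Nfe2, Padi4) and 5 genes of monocytes (Ly6c2, F13a1, Plac8, Hp, Clec5a).

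Neutrophils and monocytes descend from common myeloid precursors in the bone marrow. A granulocyte precursor first makes the serine proteases and myeloperoxidase of primary granules, later the lactoferrin, lipocalin and cathelicidin of secondary granules, then gelatinases of tertiary granules, and last surface receptors such as Cxcr2. Bone marrow-derived macrophages are grown from whole marrow with macrophage colony-stimulating factor, which L929 fibroblasts release into their medium, so marrow precursors are the starting material of such a culture.

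RNA came from macrophages of outbred mice of the strain Crl:CFW(SW)-US_P08 (CFW) at 16 weeks of age, 60 labelled male and 86 labelled female, with 1 library per mouse. No treatment was given, and all cultures were kept for 5 days in medium with L929-conditioned supernatant. The libraries sat on 7 plates, numbered 1, 2, 3, 4, 7, 8 and 10, with 6 on plate 1 and 22 to 24 on each other plate, and carried 28 collection date labels, of which 18 occurred on 1 plate only. The labels are written partly as day/month/year and partly with the year first, and the order of day and month in the latter is not certain. They were used as names of groups only, with no order in time. The study set macrophage expression beside genotype and wound healing in these mice, and the comparisons open here are those of sex, plate, date and covariation between genes.

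Library totals ran from 14.5 to 120.9 M counts, with a median of 43.8 M. The macrophage label held in the data: the growth factor receptor Csf1r averaged 1707 ± 163 CPM (CPM is the count of a gene divided by the total of its library in M; SD, n = 146) and Cd68 1749 ± 162 CPM. Ly6g, which marks mature mouse neutrophils, averaged 0.0334 ± 0.0436 CPM and was at 0 counts in 56 of 146 libraries. The summed level of the 24 other neutrophil genes listed ran from 1143 to 2344 CPM, most of it from Anxa1 (mean 626 CPM), Hk3 (598), Srgn (171) and Wfdc17 (133), and 9 of the 24 averaged under 1 CPM. The sum of 10 mitosis genes ran from 2023 to 3880 CPM. In 6 libraries the Y-linked counts went against the labelled sex, and results on sex are given with and without them.

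The promoters of the 4 primary granule genes and of the secondary granule genes Ngp, Ltf, Lcn2 and Camp are shown, since the levels of these 2 sets of 4 genes followed each other more within a set than between the sets. The Camp window holds no match to any of the 4 motifs. The sequences are RefSeq windows of 250 bases before to 50 bases after the annotated start in GRCm38.p6, 5′ to 3′ along the gene. Capitals mark matches, on either strand, to TTNNGCAA (C/EBP), GAGGAAG (PU.1), AACNGNC (MYB) and TGTGGT (RUNX).
Mpo chr11:87793534-87793833 strand +: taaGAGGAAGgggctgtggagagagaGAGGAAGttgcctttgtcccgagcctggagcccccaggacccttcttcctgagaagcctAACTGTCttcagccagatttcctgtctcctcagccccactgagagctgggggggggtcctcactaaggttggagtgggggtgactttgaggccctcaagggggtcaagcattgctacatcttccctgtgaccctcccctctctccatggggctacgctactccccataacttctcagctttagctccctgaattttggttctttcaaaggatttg
Elane chr10:79886062-79886361 strand +: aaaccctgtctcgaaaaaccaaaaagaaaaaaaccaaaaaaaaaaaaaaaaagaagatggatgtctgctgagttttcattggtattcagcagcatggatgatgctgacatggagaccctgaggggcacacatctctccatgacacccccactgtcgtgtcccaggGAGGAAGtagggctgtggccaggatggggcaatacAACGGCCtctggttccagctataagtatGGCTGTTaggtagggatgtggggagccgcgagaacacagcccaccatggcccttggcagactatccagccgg
Prtn3 chr10:79879417-79879716 strand +: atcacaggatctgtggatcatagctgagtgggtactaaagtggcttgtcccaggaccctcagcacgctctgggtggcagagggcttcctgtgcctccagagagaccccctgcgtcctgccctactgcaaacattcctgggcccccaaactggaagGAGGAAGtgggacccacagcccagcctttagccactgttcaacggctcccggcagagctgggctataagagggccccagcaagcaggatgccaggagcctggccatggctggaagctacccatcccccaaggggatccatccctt
Ctsg chr14:56102525-56102824 strand -: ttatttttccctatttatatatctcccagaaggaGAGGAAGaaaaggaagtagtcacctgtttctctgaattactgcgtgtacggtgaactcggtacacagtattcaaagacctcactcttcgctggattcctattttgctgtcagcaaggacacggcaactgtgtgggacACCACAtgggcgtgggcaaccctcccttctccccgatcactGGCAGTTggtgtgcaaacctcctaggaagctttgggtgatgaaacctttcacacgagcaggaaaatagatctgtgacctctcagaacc
Ngp chr9:110419558-110419857 strand +: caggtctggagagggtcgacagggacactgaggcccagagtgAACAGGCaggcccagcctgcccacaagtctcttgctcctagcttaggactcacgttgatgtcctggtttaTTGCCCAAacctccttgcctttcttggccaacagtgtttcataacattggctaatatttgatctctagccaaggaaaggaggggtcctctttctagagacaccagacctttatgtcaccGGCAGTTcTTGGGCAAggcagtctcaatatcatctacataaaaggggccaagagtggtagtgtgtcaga
Ltf chr9:111019042-111019341 strand +: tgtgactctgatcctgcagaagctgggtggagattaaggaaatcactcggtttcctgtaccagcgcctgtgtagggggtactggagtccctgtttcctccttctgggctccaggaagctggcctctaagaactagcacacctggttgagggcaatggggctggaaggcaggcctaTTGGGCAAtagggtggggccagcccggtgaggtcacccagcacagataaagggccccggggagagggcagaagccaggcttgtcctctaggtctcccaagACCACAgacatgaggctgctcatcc
Lcn2 chr2:32387690-32387989 strand -: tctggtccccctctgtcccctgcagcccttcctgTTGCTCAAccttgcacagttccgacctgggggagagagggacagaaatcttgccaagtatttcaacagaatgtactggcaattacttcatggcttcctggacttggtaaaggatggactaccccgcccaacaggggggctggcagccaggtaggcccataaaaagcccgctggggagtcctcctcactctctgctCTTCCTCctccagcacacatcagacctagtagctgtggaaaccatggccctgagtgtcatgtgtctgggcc
Camp chr9:109849407-109849706 strand -: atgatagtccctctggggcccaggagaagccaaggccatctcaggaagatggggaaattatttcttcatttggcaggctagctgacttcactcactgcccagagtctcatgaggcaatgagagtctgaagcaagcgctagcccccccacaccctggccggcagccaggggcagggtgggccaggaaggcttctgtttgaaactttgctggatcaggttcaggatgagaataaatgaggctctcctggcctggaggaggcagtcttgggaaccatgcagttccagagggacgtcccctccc

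Windows were found for 25 of the 31 genes, 29 windows in all, and none was found for Nfe2, Hp, Cd24a, Rab44, Cebpe and Trem3. GAGGAAG occurred in the windows of all 4 primary granule genes, at 247 and 224 bases before the start in Mpo, 216 in Ctsg, 95 in Prtn3 and 85 in Elane, and in 3 of the 8 secondary and tertiary granule genes. TTNNGCAA occurred in none of the 4 primary granule genes and in 5 of the 8 secondary and tertiary granule genes, Ngp, Ltf, Lcn2, Mmp8 and Fcnb. In the other groups, GAGGAAG occurred in 3 of the 4 monocyte genes with a window, 1 of 2 alarmins and 1 of 3 genes of later neutrophils. It occurred in no precursor or regulator gene with a window, and TTNNGCAA occurred in 1 gene of each of these other groups. Across all 32851 RefSeq windows of 300 bases, GAGGAAG was present in 13.6% and TTNNGCAA in 10.8%, while AACNGNC was present in 32.8% and TGTGGT in 16.8%. Among the 29 windows of these genes, the 4 motifs were present in 14, 10, 11 and 8 in the same order. A match of letters is a description of the window and not a measured site.

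All 31 genes passed the filter on low counts, and 26 were among the 10893 genes of the deposited VST (variance-stabilised log2) table, which lacked Camp, Pglyrp1, Cd177, Fcnb and Gfi1. Together they took 0.0884% to 0.615% of the counts of a library, with a median of 0.252%. Per length of transcript (RPKM), F13a1, Mmp8, S100a9, S100a8 and Clec5a had the highest median levels, followed by Elane and Mpo, and Cd177 and Gfi1 the lowest. In bulk libraries, fewer cells of a type and less RNA per cell cannot be told apart.

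**Figure D1:**
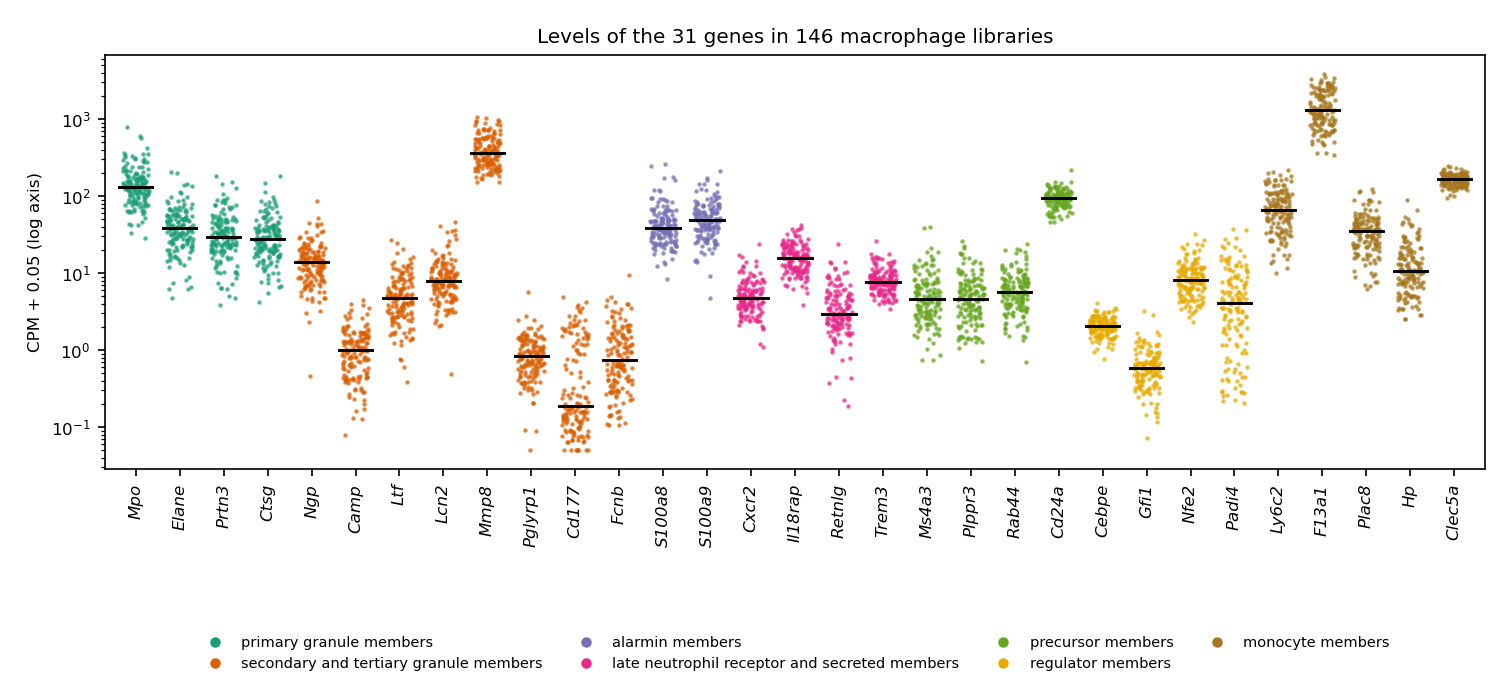
Levels of the 31 genes in 146 libraries, as CPM + 0.05 on a log axis, 1 point per library and a bar at the median, coloured by group of genes. Mpo spans 28.2 to 785 CPM, Clec5a lies within 93.3 to 246 CPM, and Cd177 divides into many libraries below 0.25 CPM and others above 0.5 CPM.

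The primary granule genes were present in every library. Mpo, myeloperoxidase, averaged 157 ± 106 CPM (SD, n = 146), with a lowest value of 28.2, a median of 130 and a highest of 785 CPM. Elane, neutrophil elastase, averaged 44.7 ± 31.9 CPM, from 4.67 over a median of 38.7 to 205 CPM. Prtn3, proteinase 3, averaged 36.98 ± 28.5 CPM and ran from 3.76 to 184 CPM with a median of 29.4 CPM. Ctsg, cathepsin G, averaged 33.9 ± 25.5 CPM and ran from 4.22 to 182 CPM with a median of 27.9 CPM. For Mpo, 9.46% of the 50-mers were shared with other genes, Gm11505 and Vmn2r7 among them. This makes its level less certain, by an amount that was not measured. Female 38 on plate 3 was the lowest library for Mpo, Prtn3 and Ctsg, and female 21 on plate 1 the highest for the same 3 genes.

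Among the secondary and tertiary granule genes, Mmp8, a neutrophil collagenase, had the highest level by far, with 422 ± 208 CPM and a range of 152 to 1074 CPM around a median of 365 CPM. Ngp, neutrophilic granule protein, averaged 15.6 ± 10.7 CPM, from 0.419 over a median of 14.0 to 86.2 CPM. Lcn2, lipocalin 2, which binds bacterial siderophores, averaged 9.72 ± 7.49 CPM, from 0.447 over a median of 7.85 to 46.8 CPM. The lowest library for Ngp, Lcn2 and Ltf was the same, male 42 on plate 7. Ltf, lactoferrin, averaged 5.76 ± 4.44 CPM, Fcnb, ficolin B, 1.11 ± 1.22 CPM, Camp, the cathelicidin precursor, 1.09 ± 0.81 CPM and Pglyrp1, a peptidoglycan recognition protein, 0.893 ± 0.637 CPM. Cd177, a neutrophil surface protein, did not follow 1 continuous range: 89 libraries lay below 0.25 CPM, 7 from 0.25 to below 0.5 CPM and 50 at 0.5 CPM or more, with a highest value of 4.90 CPM. For Cd177, 5.51% of the 50-mers were shared with other genes, Gm4763 among them.

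The alarmins S100a8 and S100a9, which form the calcium-binding heterodimer calprotectin, averaged 48.7 ± 37.4 and 55.2 ± 33.01 CPM. S100a8 ran from 8.47 over a median of 38.8 to 264 CPM, and S100a9 from 4.69 over a median of 48.5 to 210 CPM. Among genes of later neutrophils, Il18rap, a subunit of the interleukin 18 receptor, averaged 16.9 ± 7.37 CPM, from 3.86 over a median of 15.7 to 41.9 CPM. Trem3, an activating receptor, averaged 8.42 ± 3.43 CPM, from 3.34 over a median of 7.71 to 26.2 CPM, and Cxcr2, the receptor for neutrophil-attracting chemokines, 5.45 ± 3.23 CPM, from 1.07 over a median of 4.75 to 23.8 CPM, with 6.68% of its 50-mers shared with other genes. Retnlg, resistin-like gamma, averaged 3.97 ± 3.22 CPM.

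Among precursor genes, Cd24a, a surface glycoprotein, averaged 95.5 ± 25.2 CPM, from 45.6 over a median of 95.5 to 217 CPM. Rab44 averaged 6.58 ± 4.21 CPM, from 0.643 over a median of 5.61 to 24.2 CPM, and Ms4a3, a membrane protein of granulocyte and monocyte precursors, 6.01 ± 5.57 CPM, from 0.699 over a median of 4.54 to 40.3 CPM. Plppr3 averaged 5.80 ± 4.46 CPM. It neighbours Prtn3 on chromosome 10 on the opposite strand, and 6.45% of the 50-mers of Prtn3 were shared with it. The library kit does not mark strand, and how reads of the shared stretch were counted was not tested. Among regulators, Nfe2, a transcription factor, averaged 9.22 ± 5.15 CPM, from 2.30 over a median of 8.21 to 32.6 CPM, and Cebpe, which drives secondary granule genes, 2.06 ± 0.567 CPM, from 0.717 over a median of 2.02 to 3.99 CPM. Padi4, which citrullinates histones, averaged 6.13 ± 6.96 CPM with a median of 4.05 CPM. It ran from 0.153 to 37.6 CPM, with 31 libraries below 1 CPM and 12 at 16 CPM or more. Gfi1, a transcriptional repressor of neutrophil development, averaged 0.607 ± 0.431 CPM.

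Among monocyte genes, F13a1, coagulation factor XIII A, averaged 1544 ± 829.5 CPM, from 342 over a median of 1313 to 3860 CPM. Clec5a, a lectin receptor, averaged 165 ± 28.6 CPM, from 93.3 over a median of 166 to 246 CPM. Ly6c2, the surface antigen of inflammatory monocytes, averaged 76.4 ± 45.5 CPM, from 10.1 over a median of 66.8 to 217 CPM. It shared 14.5% of its 50-mers with other genes, chiefly its near copy Ly6c1, which makes its level less certain, by an amount that was not measured. Plac8 averaged 37.7 ± 22.4 CPM and Hp, haptoglobin, 14.6 ± 12.9 CPM.

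The spread between mice was wide for most of these genes. The biological coefficient of variation, the spread between libraries beyond counting error with plate and sex in the model, had a median of 0.563 over the 31 genes and of 0.130 over all 12060 genes tested, and 25 of the 31 genes lay above the 90th percentile of all genes. Cd177 at 1.42 and Padi4 at 1.07 had the largest values, and Clec5a at 0.159, Cd24a at 0.242 and Cebpe at 0.251 the smallest.

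Single libraries combined the groups differently. Female 21 on plate 1 had the highest value of 8 genes, with 785 CPM of Mpo, 184 CPM of Prtn3, 182 CPM of Ctsg, 40.3 CPM of Ms4a3 and 27.3 CPM of Ltf. Female 47 on plate 4 had the highest Elane, 205 CPM, and the highest S100a8, 264 CPM, but 0.398 CPM of Camp and 4.08 CPM of Ltf, both below the median. Female 83 on plate 8 had the highest Ngp, S100a9, Cxcr2 and Retnlg, at 86.2, 210, 23.8 and 23.6 CPM. Male 42 on plate 7 was lowest for 13 genes, with 0.419 CPM of Ngp and 0 counts of Pglyrp1, yet had 209 CPM of Clec5a and 105 CPM of Cd24a. Female 38 on plate 3 was lowest for 7 genes, among them Mpo at 28.2 CPM and Ly6c2 at 10.1 CPM, and kept Ltf at 4.73 CPM, close to its median of 4.74 CPM.

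Primary against secondary granule genes were set side by side as sums. The 4 primary granule genes summed to 42.4 to 1354 CPM, with a median of 230 CPM. The 8 secondary and tertiary granule genes summed to 160 to 1191 CPM, with a median of 394 CPM, above that of the primary granule genes. Mmp8, with a median of 365 CPM, is in that sum and not in the ratio that follows. The primary granule sum divided by that of Ngp, Camp, Ltf and Lcn2 had a median of 8.09. Its lowest value was 2.24 in male 11 on plate 2 and its highest 46.8 in male 42 on plate 7. The median log2 ratio by plate ran from 2.61 on plate 2 to 3.59 on plate 3.

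Most of the genes were high and low in the same libraries. After removal of plate and sex from log2(CPM + 0.5), 400 of the 465 pairs passed a two-sided permutation test of Spearman's rho (100000 permutations, Benjamini-Hochberg adjusted over the 465 pairs), 398 of them positive. The median rho was 0.525, against 0.0118 over all pairs of tested genes, and 245 pairs (52.7%) reached a rho of 0.5, which 2.61% of all pairs of tested genes did. The genes were chosen with earlier results of these data known, so this contrast is not independent of that choice. Mice of the same date are not independent, which these permutations do not allow for. With date in place of plate removed, 368 pairs passed and the median rho was 0.479, and within single plates the median ran from 0.344 on plate 3 to 0.666 on plate 4.

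**Figure D2:**
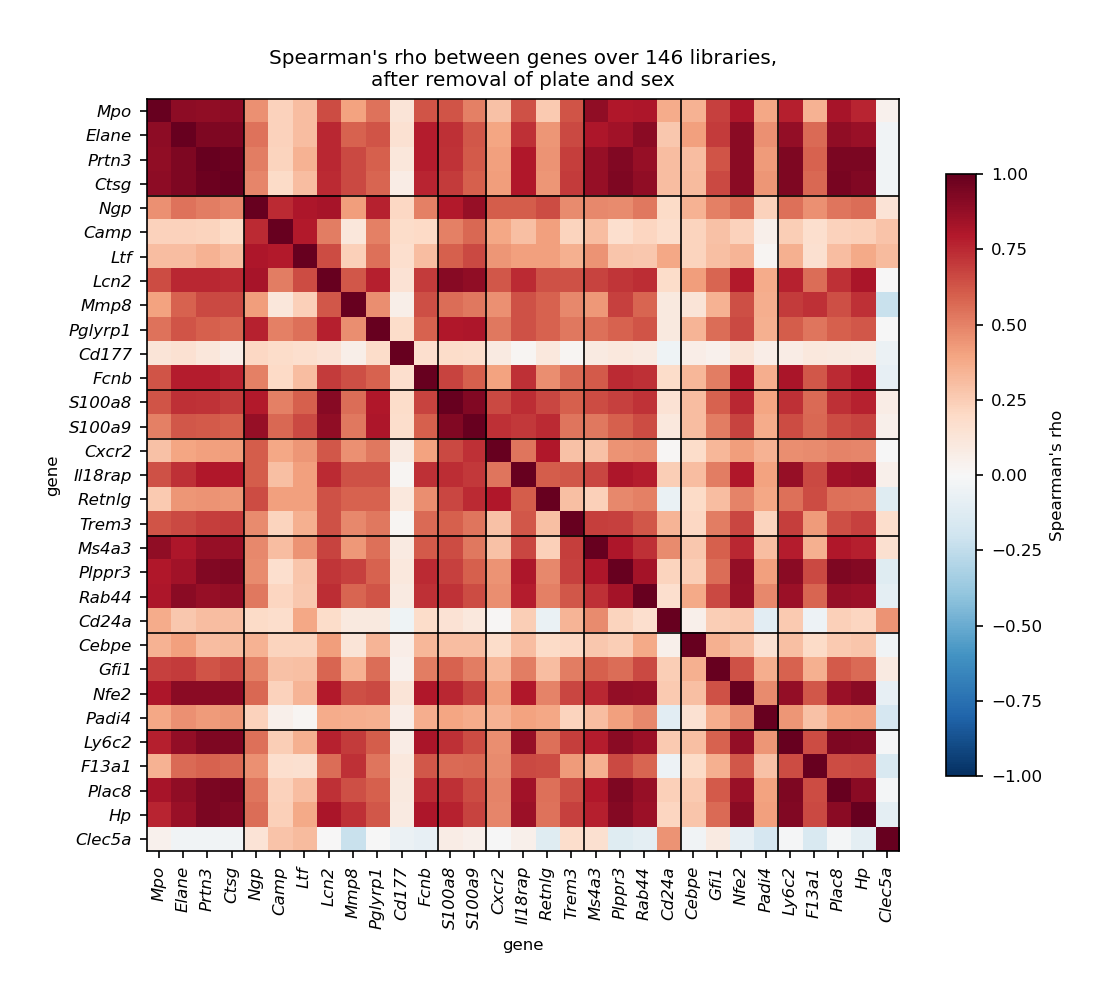
Spearman's rho between each pair of the 31 genes over 146 libraries, after removal of plate and sex, with lines between groups of genes. Red is positive and blue negative. The primary granule block lies at 0.888 to 0.979, and Clec5a, Cd177 and Cd24a form pale rows.

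The primary granule genes formed the closest group, with a median rho of 0.914 over their 6 pairs. Prtn3 and Ctsg had a rho of 0.979 and a Pearson r of 0.978 over 146 libraries (permutation p = 1e-05 for each, the smallest the permutations can give, adjusted p = 1.5e-05 for rho). Without the 2 libraries farthest from the median of the first gene, r was 0.976, and within plates rho ran from 0.943 to 0.990. Mpo and Elane had a rho of 0.895 and r of 0.925 (permutation p = 1e-05 for each), and r was 0.917 without the 2 farthest libraries. The secondary granule genes Ngp, Camp, Ltf and Lcn2 had a median rho of 0.772 over their 6 pairs, with Ngp and Ltf at 0.811 and Camp and Ltf at 0.795. Between those 4 and the 4 primary granule genes the median was 0.399 over 16 pairs, below both values within a set, though 6 of the 16 pairs reached 0.5 and the highest was 0.757. The contrast did not extend to all 8 secondary and tertiary granule genes, whose median rho was 0.506 among themselves (28 pairs) and 0.527 with the primary granule genes (32 pairs). Mpo and Ngp had a rho of 0.454 and r of 0.506 (permutation p = 1e-05 for each), and r was 0.502 without the 2 farthest libraries, but rho within plates ran from 0.0819 to 0.772. Mpo and Camp had a rho of 0.227 and r of 0.267 (adjusted permutation p = 0.0076 for rho), and on plate 10 the rho was -0.313.

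Of the genes grouped here as monocyte genes, Ly6c2, Plac8 and Hp followed the primary granule genes, and which cells they came from was not tested. With F13a1 added, these 4 genes had a median rho of 0.872 with the primary granule genes and of 0.417 with Ngp, Camp, Ltf and Lcn2. With Clec5a included as well, the median with the primary granule genes was 0.802 over 20 pairs, and the lowest was -0.0356. Ctsg and Plac8 had a rho of 0.948 and r of 0.949 (permutation p = 1e-05 for each), Prtn3 and Hp 0.938 and 0.928, and Prtn3 and Ly6c2 0.934 and 0.941, and r was 0.943, 0.925 and 0.939 without the 2 farthest libraries of each pair. F13a1 was nearest to Mmp8, with a rho of 0.728, and had a rho of 0.351 with Mpo. Clec5a had a median rho of -0.0163 with the other 30 genes, 18 of them negative, and was nearest to Cd24a, with a rho of 0.448. The only 2 negative pairs that passed were those of Clec5a with Mmp8 (rho -0.222) and with Padi4.

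**Figure D3:**
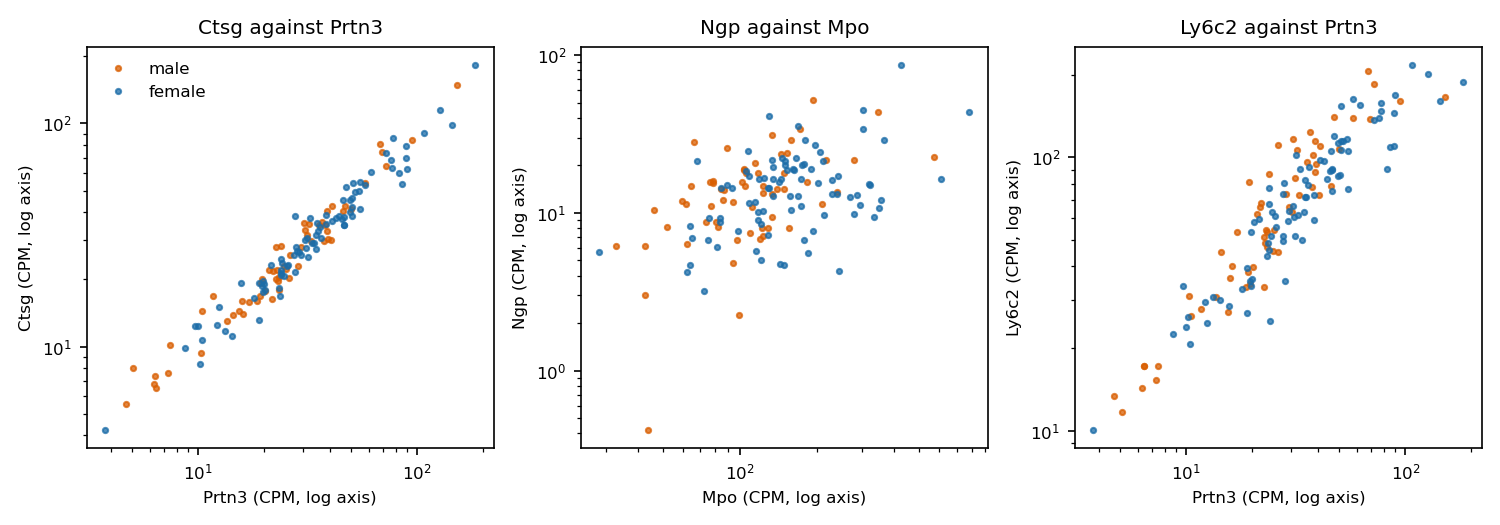
Ctsg against Prtn3, Ngp against Mpo and Ly6c2 against Prtn3, in CPM on log axes, 1 point per library, with males in orange and females in blue. The points of Prtn3 with Ctsg and with Ly6c2 lie close to a line (rho 0.979 and 0.934), and those of Mpo with Ngp scatter more (rho 0.454).

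The alarmins and later genes formed further neighbours. S100a8 and S100a9 had a rho of 0.928 and r of 0.914 (permutation p = 1e-05 for each, r of 0.920 without the 2 farthest libraries). S100a9 had a rho of 0.871 with Ngp, and S100a8 one of 0.908 with Lcn2, whereas the 2 alarmins had a median of 0.626 with the primary granule genes. Cxcr2 was nearest to Retnlg, with a rho of 0.798, and had a rho of 0.291 with Mpo. Ms4a3 was nearest to Mpo, with a rho of 0.885, and Nfe2 and Rab44 to Elane, with a rho of 0.906 and 0.901. Cd177, Cd24a, Cebpe, Padi4 and Clec5a had no partner at a rho of 0.5, and Cebpe reached 0.419 at most, with Lcn2.

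Genes outside the list were ranked by likeness to Mpo, Ngp and Ly6c2 over the 146 libraries with plate and sex removed. In a limma fit with plate and sex as covariates, 28 of the 30 other listed genes had a positive slope on Mpo at an adjusted p under 0.05, beside 14.8% of all 12059 genes, with Cd177 and Clec5a not passing. The median slope was 0.551 for the listed genes and -0.00233 for all genes. Such contrasts, here and below, also rest on genes chosen with earlier results of these data known. Slopes here and below are in log2 per SD of the log2 CPM of the leading gene, Mpo, Ngp or Ly6c2. The nearest genes to Mpo were Ccdc88c (rho 0.863), Myb, a transcription factor of haematopoietic progenitors (0.859), Pecam1, an adhesion molecule (0.828), H2afy, a histone variant (0.815), Gria3 (0.811) and BC035044 (0.804). The lowest were Cadm1 (-0.600), Cd63, a lysosomal membrane protein (-0.543), Arhgap22 (-0.541) and Nrp2 (-0.519). Of the other neutrophil genes 16 of 21 tested had a positive slope and none a negative one, with Prss57 (slope 0.71) and Chil3 (0.81) among the smallest p. Of the myeloid progenitor genes 10 of 17 had a positive slope and 1 a negative one, Kit, the stem cell factor receptor, at 0.53 and Erg at 0.61. Of other monocyte genes 8 of 12 were positive and 1 negative, with Vcan at 0.80 and Ccr2 at 0.52. Of macrophage genes 1 of 16 was positive and 5 negative (15.5% of all genes were negative), Csf1r at -0.06 and Cd68 at -0.05, and of 10 mitosis genes none passed. The mitosis genes with the smallest p, Cdc20 and Bub1, had slopes of 0.04 and -0.05 (limma adjusted p = 0.0506 and 0.0659).

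On Ngp, 28 of 30 listed genes had a positive slope, beside 20.9% of all genes. The nearest outside the list were Wfdc21 (rho 0.680), Mmp9, the gelatinase of tertiary granules (0.678), Abca13 (0.674), Crispld2 (0.673), Mgam (0.630) and Prom1 (0.619), and the lowest Id1 (-0.534), Cadm1 (-0.492), Kank2 (-0.484) and Cd63 (-0.481). Cadm1 and Cd63 were also among the lowest for Mpo. With collection date in place of plate, 2980 genes in place of 5145 were associated with Ngp. For Ly6c2, 28 of 30 listed genes were positive beside 27.8% of all genes, and the nearest were Ccr2, the receptor by which monocytes leave the marrow (0.925), Ccdc88c (0.891), Nrg1 (0.891), Vcan (0.888), Ifitm1 (0.881) and Gria3 (0.873). Of the 16 macrophage genes 2 had a positive and 6 a negative slope on Ly6c2, beside 29.7% negative over all genes. Of the 10 mitosis genes 1 was positive and 6 were negative on Ly6c2. On Ngp none of these mitosis genes was positive and 2 were negative, beside 21.8% negative over all genes. Genes of other cell types also moved with these levels: the 3 tested stromal genes had positive slopes on Ngp and on Ly6c2, Col1a1 at 0.78 and 0.55, and the summed level of all 5 stromal genes listed ran from 0 to 67.4 CPM over the libraries, with Dcn at 0 counts in 50 and Lum at 0 in 121. Their part in these slopes was not tested.

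Between the sexes, 2 of the 31 genes differed by edgeR's quasi-likelihood test with plate as covariate (Benjamini-Hochberg adjusted over 12060 genes), beside 5.02% of all genes, and both were lower in males, beside 2.84% of all genes, while none was higher, beside 2.17%. At an unadjusted p under 0.05 there were 10 listed genes, beside 20% of all genes. Mpo ran from 32.8 over a median of 105 to 569 CPM in males, and from 28.2 over a median of 150 to 785 CPM in females. The mean was 123.5 CPM in the 60 males with an SD of 82.3, and 180 CPM in the 86 females with an SD of 115. The fitted log2 difference, male minus female, was -0.54 ± 0.13 (SE, edgeR adjusted p = 0.00651). The ranges of the sexes overlapped. The difference was negative on each of the 7 plates, from -0.28 on plate 4 to -1.78 on plate 1, where 2 males stood against 4 females. Those females included female 21, with 785 CPM. Within single plates Mpo passed the threshold on none, with a lowest edgeR adjusted p of 0.226 on plate 2. Without the 6 libraries against their label the difference over all plates was -0.60 (edgeR adjusted p = 0.00166).

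Cd24a ran from 45.6 over a median of 84.8 to 133 CPM in males, and from 50.8 over a median of 98.4 to 217 CPM in females. It averaged 86.1 ± 20.3 CPM in males and 102 ± 26.3 CPM in females, a log2 difference of -0.22 ± 0.06 (edgeR adjusted p = 0.0162), and -0.24 without the 6 libraries against their label (edgeR adjusted p = 0.00855). Without plate 3 its adjusted p was 0.0554. The other primary granule genes had log2 differences of -0.46 for Elane (edgeR adjusted p = 0.0642), -0.46 for Prtn3 (0.0872) and -0.37 for Ctsg (0.153), and Gfi1 had -0.47 (0.0501). The median log2 difference was -0.46 for the 4 primary granule genes, -0.11 for the 8 secondary and tertiary granule genes, -0.12 for the 5 monocyte genes, -0.27 for the 4 precursor genes, -0.34 for the 4 regulators, -0.06 for the 2 alarmins, -0.0098 for the 4 genes of later neutrophils and 0.00152 for all genes. It was 0.06 for 21 other neutrophil genes, of which 1 was higher in males (Wfdc17), and 0.03 for 12 other monocyte genes, of which 2 were lower (Cx3cr1 and Ly6a). Under limma voom 6 listed genes passed, beside 5.95% of all genes, namely Mpo, Elane, Prtn3, Ms4a3, Gfi1 and Cd24a, and 4 passed in edgeR without the libraries against their label.

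Of 17 myeloid progenitor genes tested, 6 were lower in males, beside 2.84% of all genes, and none higher, Kit at -0.61 (edgeR adjusted p = 0.000424), Cd34, a surface marker of progenitors, at -0.32 (0.000591), Hoxa9 at -0.79 (0.00161), Erg at -0.58 (0.00995), Meis1 at -0.31 (0.0228) and Sox4 at -0.33 (0.0258). The other 11 did not pass, among them Myb at -0.32 (0.0978), Flt3 at -0.09 (0.797) and Cebpa at 0.08 (0.170). Stromal Col1a1 and Col1a2 were lower in males too, at -1.61 and -1.35, and 3 of 16 macrophage genes were higher, Mrc1 at 0.64, Apoe at 0.40 and Adgre1 at 0.11. The part of these cell types in the difference of Mpo was not tested. No listed gene passed in the sex-by-plate interaction in edgeR (0 of 31 at an unadjusted p under 0.05; in limma voom 0 after adjustment and 1 at an unadjusted p under 0.05), beside 0.0415% of all genes, so a difference between plates in the effect of sex was not detected.

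**Figure D4:**
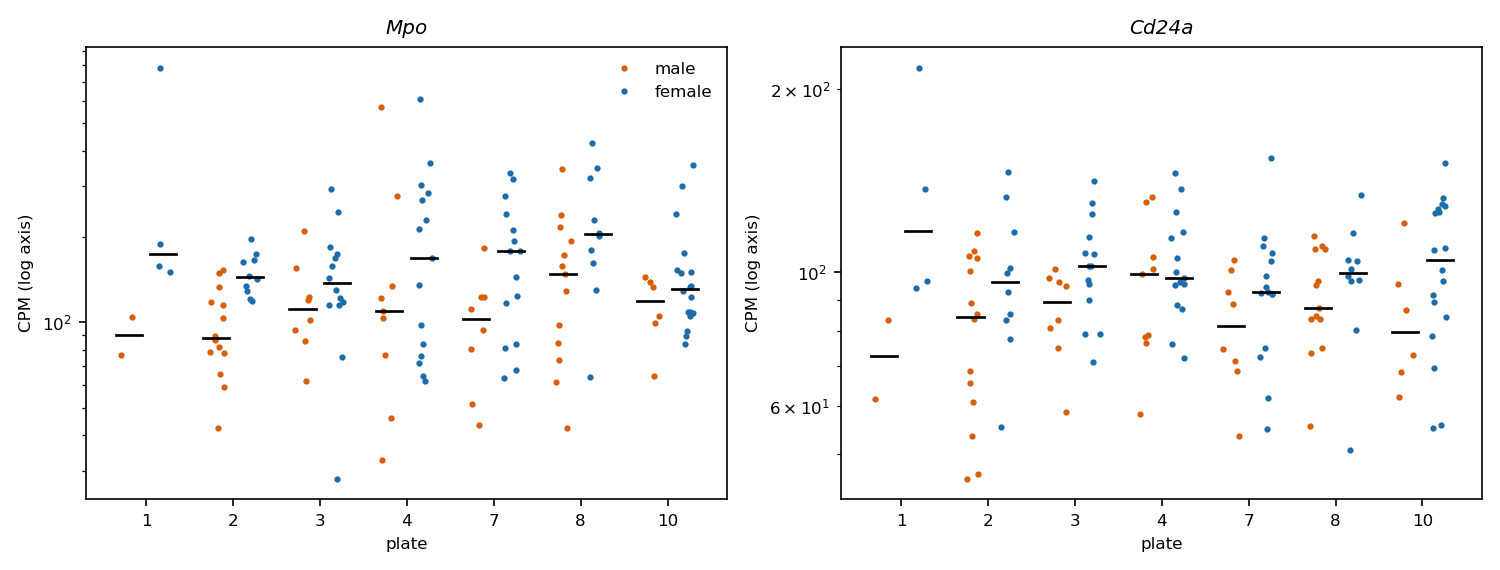
Mpo and Cd24a in males (orange, left) and females (blue, right) of each plate, in CPM on a log axis, 1 point per library and a bar at the median. On every plate except plate 4 for Cd24a the male median lies below the female one, and the points overlap on all plates except plate 1.

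Plates differed for 23 of the 31 genes by edgeR with sex as covariate, beside 74.8% of all genes, so the share is close to that of all genes. The share of variance of log2(CPM + 0.5) between plates had a median of 9.73% over the listed genes and 14.7% over all genes, where 4.14% is the average with no difference between plates. Cxcr2 differed most clearly (edgeR adjusted p = 1.08e-06), with 7.53 ± 5.18 CPM on plate 8 (SD, n = 23) and 3.54 ± 1.05 CPM on plate 7 (n = 23). Its median was highest on plate 1 (6.24 CPM), then plate 2 (5.83) and plate 8 (5.63), and lowest on plate 7 (3.53). S100a9 (edgeR adjusted p = 5.98e-06) averaged 71.5 ± 50.02 CPM on plate 8 and 33.2 ± 11.8 CPM on plate 3, and Ngp (8.1e-06) 22.5 ± 19.02 and 8.64 ± 3.43 CPM on the same plates. The medians on plate 8, 50.3 CPM of S100a9 and 15.04 CPM of Ngp, lay below those on plates 1, 2 and 10, while plate 3 had the lowest median of both. F13a1 (1.63e-05) averaged 2212 ± 935 CPM on plate 10 and 1065 ± 530 CPM on plate 7. Elane, Prtn3, Gfi1, Hp, Cd177, Trem3, Padi4 and Cd24a did not pass.

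Collection dates differed for 28 of the 31 genes by edgeR with sex as covariate, beside 87.6% of all genes. Cxcr2 (edgeR adjusted p = 2.94e-14), Retnlg (8.93e-13), S100a9 (1.23e-10) and Ngp (6.05e-10) had the smallest p, and the share of their variance between dates was 60.2%, 59.3%, 58.5% and 55.2%. For Mpo, Elane, Prtn3 and Ctsg it was 19.5%, 22.97%, 22.4% and 21.8%, against a median of 39.3% over all genes. With 28 labels over 146 libraries this share averages 18.6% where dates do not differ, so the values of the primary granule genes lie near it. That the share differs between these groups of genes was not tested. Cxcr2 averaged 11.1 ± 3.29 CPM under the label 22/07/2010 (SD, n = 5), on plates 1 and 2, and 3.23 ± 0.847 CPM under 2011-07-04 (n = 6), on plate 7. The libraries of the first label lay at 7.60 to 14.2 CPM, all above the 2.48 to 4.48 CPM of the second. Ngp averaged 31.3 ± 13.7 CPM under 2011-07-07 (n = 8) and 8.57 ± 3.78 CPM under 23/06/2011 (n = 8), both on plate 8, and the 8 libraries of the first label lay at 14.1 to 51.7 CPM, all above the 3.00 to 13.5 CPM of the second. With plate as a further covariate 21 of the 31 genes passed, beside 69.2% of all genes, and all 4 primary granule genes were among those lost, with adjusted p from 0.0643 for Mpo to 0.0975 for Ctsg. By limma voom, too, 21 passed, beside 88.3% of all genes, and none of the 4 primary granule genes did.

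**Figure D5:**
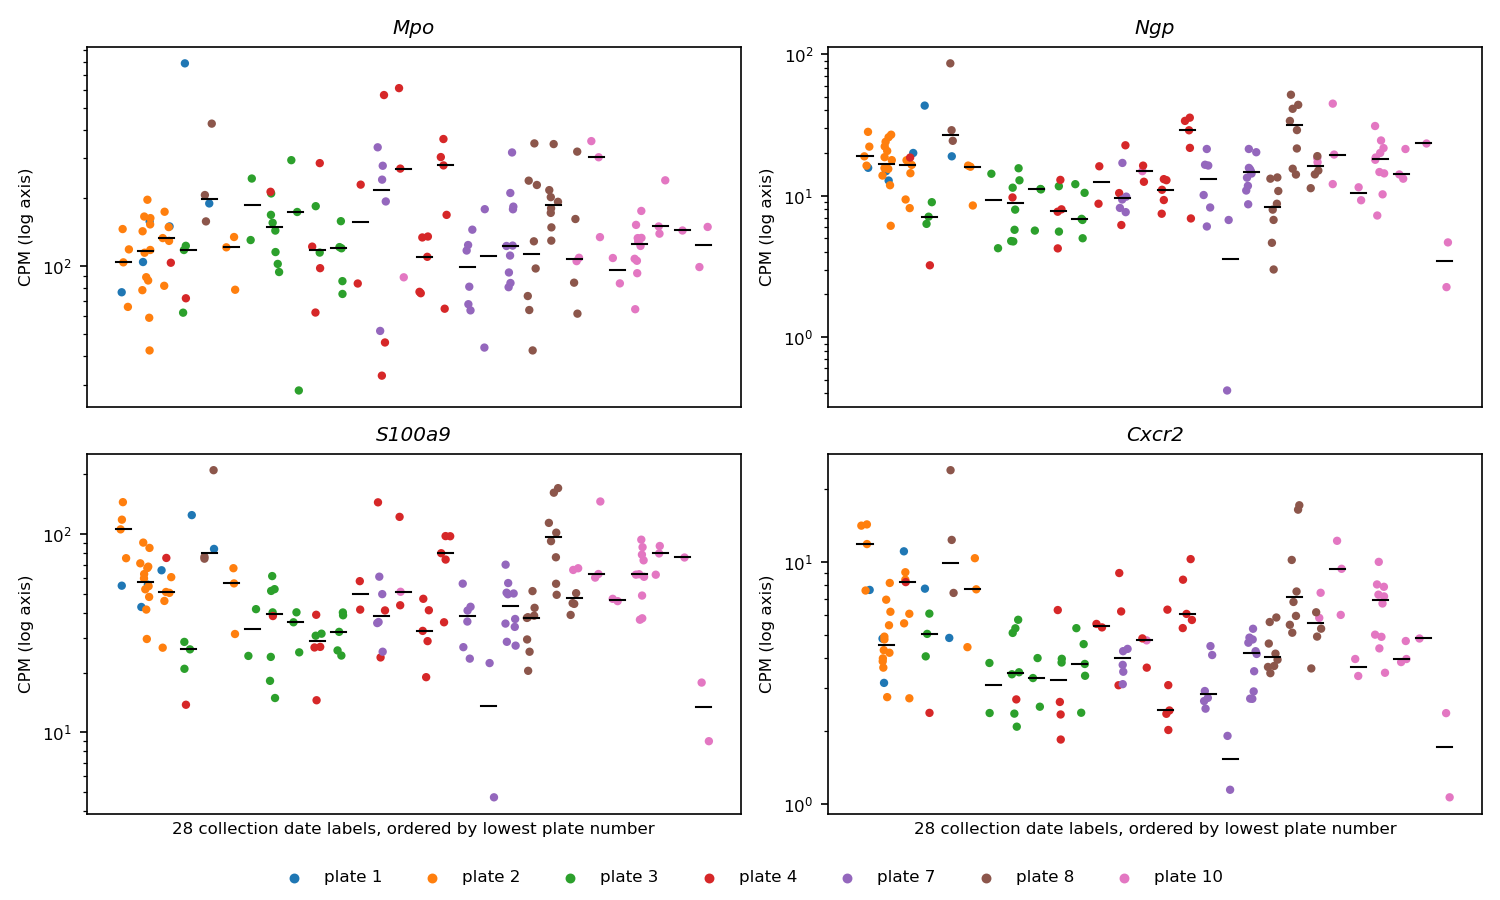
Mpo, Ngp, S100a9 and Cxcr2 under the 28 collection date labels, in CPM on a log axis, 1 point per library coloured by plate and a bar at the median. Labels are ordered by their lowest plate number, not by time. The medians of Ngp, S100a9 and Cxcr2 differ more between labels, relative to the spread within a label, than those of Mpo.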

How the data were processed

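Libraries of polyadenylated RNA were sequenced as paired reads, 1 library for each of 146 mice. Per the submitters' processing notes, FastQC, TopHat2 2.0.11, HTSeq 0.6.1 and DESeq2 were used with the build GRCm38 (mm10). The deposited raw table holds counts per gene, and the deposited VST table holds log2 values after the variance-stabilising transformation, per its name. Symbols came from GENCODE M21. CPM used the column sums. Sex, plate, date and their interaction were tested with edgeR 4.0.16 (R 4.3.3; TMM, filterByExpr, quasi-likelihood), with limma 3.58.1 (voom) and DESeq2 1.42.0 as alternatives. Slopes came from limma on log2 CPM (prior count 2), per SD of the log2 CPM of the leading gene. Correlations came from numpy 2.4.6 on log2(CPM + 0.5) with 100000 permutations. The edgeR test of sex, the limma slope and the permutation test of correlations were tried on simulated data. The tests of plate, date and interaction, voom, DESeq2 and Dixon's test were not. Sharing between genes was read from 50-mers of the annotated transcripts. Adjusted p under 0.05 was the threshold. Nothing says that mice were independent beyond 1 library each, and litters are not given. Members and lists were chosen with earlier results of these data known. All 31 members are accounted for. Full values are given for the primary granule genes, the 3 highest of each other group and genes past the sex threshold. For Mpo, Ngp and Ly6c2 the 6 nearest and 4 lowest genes outside the list, leaving out those without an established symbol, were taken, and per list up to 4 by smallest p in the fit on Mpo. Cebpd, Ighm and Trbc1 were not used here. Alternatives were another tool, scaling, filter, covariate or pseudocount, single plates left out, and libraries left out.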

Additional observations from a re-analysis of the deposited data

Results flagged for a closer look

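In groups of 4 to 10 libraries, 26 of 127 combinations of gene and group had 1 library whose gap to the next exceeded Dixon's 95% critical value. That value assumes normally distributed values, and CPM was used untransformed, so no rate by chance is given. Plate 1 was the only plate with 4 to 10 libraries. Date labels were examined for Mpo, Elane, Ngp, S100a9, Cxcr2 and Ly6c2 only. The combinations are not independent, and 19 of the 26 flags were at female 21. On plate 1 this library was flagged for 14 genes, set against the other 5 libraries of that plate. It had 785 CPM of Mpo (others 76.6 to 189), 203 of Elane (23.7 to 57.6), 184 of Prtn3 (21.1 to 50.8) and 182 of Ctsg. It also had 43.3 CPM of Ngp, 3.81 of Camp, 27.3 of Ltf, 35.6 of Lcn2, 179 of S100a8 and 26.2 of Trem3. Ms4a3 stood at 40.3 CPM in it, Plppr3 at 22.6, Gfi1 at 2.83 and Hp at 65.5. On the same plate, male 7 had 2560 CPM of F13a1 (others 1230 to 1580).

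Among libraries with 1 date label, female 21 stood apart under 28/10/2010 with 785 CPM of Mpo, 203 of Elane, 43.3 of Ngp, 125 of S100a9 (others 13.8 to 28.6) and 188 of Ly6c2 (15.3 to 34.5). Under 14/07/2011, female 83 had 86.2 CPM of Ngp and 210 CPM of S100a9 (75.1 to 84.1), at the lowest depth of all libraries, 14.5 M counts. Male 57 had 346 CPM of Mpo under 2011-07-07 (129 to 216), and male 36 had 145 CPM of S100a9 under 17/03/2011 (23.8 to 60.9). Male 37 had 6.34 CPM of Cxcr2 under 2011-10-03 (2.02 to 3.09), and female 14 had 163 CPM of Ly6c2 under 16/06/2011 (48.4 to 107).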

How the results depend on the processing

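Against 2 listed genes between the sexes, 6 passed by limma voom, 4 without the libraries against their label, 4 with no batch covariate, 1 without plate 3 and 4 without plate 4. The log2 difference of Mpo stayed negative and past the threshold in every alternative run. Genes associated with Ngp numbered 2980 with collection date in place of plate, against 5145. With that change, the slope of Siglech turned to -0.0714 on Ngp and -0.0353 on Ly6c2. Within single plates, rho turned negative for Mpo with Camp (-0.313, plate 10), with Cxcr2 (-0.0286, plate 1) and with F13a1 (-0.053, plate 2). The cause was not tested. Without female 21 and male 42, an alternative chosen after seeing the data, 2 listed genes passed between sexes, 21 between plates, 28 between dates and 391 pairs. No paired analysis was possible because the labels give no replicate numbers that the sexes share. Levels under 1 CPM (Cd177, Gfi1, Pglyrp1) rest on few counts in shallow libraries. The same holds for Camp and Fcnb, with medians of 0.941 and 0.686 CPM and lowest counts of 1 and 2.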

Other observations

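Genes of other marrow cell types also varied with the granule genes. Mcpt8, a basophil protease, had a slope of 0.76 on Mpo (rho 0.633), and Ccr3, a receptor of eosinophils, one of -0.25 (rho -0.302). Itga2b, the integrin of platelets and megakaryocytes, had a slope of 0.48 and Cd79b, a subunit of the B cell receptor, 0.39. All 7 dendritic cell genes had positive slopes on Ngp, beside 20.9% of all genes, and 2 of 7 on Mpo, beside 14.8%. Of these, Siglech had a slope on Ngp of -0.0714 once date replaced plate as covariate (limma adjusted p = 0.650). The summed levels were low: 1.32 to 9.80 CPM for the 10 eosinophil, mast cell and basophil genes, 0.387 to 12.3 CPM for the 10 erythroid and megakaryocyte genes, and 15.2 to 127.8 CPM for the dendritic cell genes.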
